A study of Rattus norvegicus with 84 samples.

Results

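Age was compared in CA3 of the rat hippocampus, at 12 against 5 months, across all genes measured. The comparison used all 28 CA3 libraries of the 84 in the series, 12 from rats aged 5 months and 16 from rats aged 12 months. The others come from CA1 (28) and the dentate gyrus (DG, 28) of the same rats. All rats were males of the inbred strain F344, which the submitters call young at 5 and middle-aged at 12 months, and the labels name no allele and no treatment. Each library is polyA RNA from 1 rat and 1 hemisphere, so the 28 libraries stand for 28 rats. The dissected tissue holds neurons, glia and vessels together. The animal numbers form a first run, with 6 rats of 5 months and 10 of 12 months, and a second run, with 6 of each age. Within a run each age holds its own block of numbers, so a difference between blocks and a difference between ages cannot be told apart, and the labels do not call the runs batches. By its title the study asked about ageing and the separation of similar spatial memories, and no behavioural score was used here.

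CA3 pyramidal neurons receive the mossy fibres of dentate granule cells and excite each other through recurrent collaterals, a circuit known for storing associations and completing them from partial cues. Their mossy fibre synapses are known for kainate receptors, and their output runs to CA1. Microglia, the immune cells that reside in the brain, survey this tissue with Fc, Toll-like and purine receptors and take up synapses tagged by complement. MHC class II molecules, which show peptides to helper T cells, are scarce in young healthy brain and are known to appear on microglia with age or infection, and type I interferons switch on a broad set of antiviral genes.

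Recovered reads ranged from 15662511 to 21776708 per CA3 library. Over 378 pairs of libraries the lowest chi-square per degree of freedom was 5.7, so every pair differed by more than sampling noise. Mitochondrially encoded genes took 7.9%, 8.51% and 13.1% of the 12-month libraries (lowest, median and highest) and 5.23%, 7.76% and 9.77% of the 5-month libraries. The means were 9.04 ± 1.36% and 7.59 ± 1.56% (SD, n = 16 and 12), a difference of 1.45 percentage points (2-sided permutation test, p = 0.0116). In the first run the means were 8.67% and 8.69% (exact permutation p = 0.97), and in the second 9.65% and 6.49% (exact permutation p = 0.00433). A single library, 12-month replicate 10, stood apart in immune genes. In 64 tested genes it held at least 50 normalized counts and at least 3 times the next library, and 33 of these belong to the 8 immune lists used below, which hold 179 tested genes. The same was true of 5 genes in 12-month replicate 13 and of 0 genes in each of the other 26 libraries. Counts of the immune lists are therefore given with and without replicate 10, as are the immune genes that rose and are described by their lowest, median and highest values.

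Genes known from CA3 pyramidal cells were looked up in the libraries labelled CA3. Cpne4, a calcium-binding copine, had 6674, 7531 and 8587 at 5 months and 7002, 8017 and 9983 at 12 months in normalized read counts (lowest, median and highest library, here and below). Grik4, the kainate receptor subunit GluK4, had 2671, 3178 and 3641 at 5 months and 2633, 2924 and 3479 at 12 months, and Bok, a BCL2 family gene, 1622, 1870.4 and 2395 at 5 months and 1465, 1748 and 2024 at 12 months. All 3 were high in every library and the ages overlapped in each. Their log2 changes were 0.11 ± 0.05, -0.08 ± 0.05 and -0.14 ± 0.06 (SE, limma, adjusted p = 0.114, 0.246 and 0.0699), and none passed. These levels were not set against CA1 or DG libraries, so they do not tell CA3 from its neighbours. The CA1 marker Fibcd1 ranged at 12 months from 927.9 to 5759.6 in the first run and from 808.9 to 4523.4 in the second. Of 18 tested CA3 markers 2 were lower at 12 months, Rnf182 (-0.21 ± 0.06) and the secreted Wnt modulator Dkk3 (-0.15 ± 0.05). Among markers of neighbouring cells, 2 of 13 CA1 markers passed (0 to 3 when 1 rat was left out), and 0 of 8 CA2 markers and 0 of 12 dentate granule cell markers. The summed level of the CA1 markers ranged from 10780.5 to 24263.9 at 5 months and from 7362.1 to 26764.2 at 12 months, and that of the dentate markers from 4521.6 to 8447.3 and from 3920.4 to 8754.5. Both lists varied widely within each age. With marker levels as covariates, 2952 of the 3231 genes described next passed again.

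Of 14893 genes tested, 3231 (21.7%) differed between the ages in limma at an adjusted p under 0.05. At 12 months 1628 (10.9%) were higher and 1603 (10.8%) lower. Most changes were small. The median absolute log2 change of these genes was 0.23, a 1.5-fold difference was reached by 164 (127 higher and 37 lower) and a 2-fold difference by 31 (22 higher and 9 lower). Over all tested genes the median change was 0.002 and 50.5% were positive. All log2 changes are on the scale of log2 of the value plus 1, which understates the change of genes with few reads. In 7 genes (0.047%) every library of one age lay above every library of the other, 5 of them higher and 2 lower at 12 months. Among these, chosen after their values were seen, Fcgr2b, Jhy, Cd74 and RT1-Da were higher and Dgcr2 and Prr36 lower. In bulk tissue, a change in the number of cells of a type and a change in RNA per cell cannot be told apart.

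Within the runs, 719 genes (4.83%) passed in the first and 2462 (16.5%) in the second. In several lists few members passed in the first run alone: 0 of the homeostatic microglia list (14 in the second), 1 of MHC class II (6), 1 of the interferon-induced list (6), 2 of axon guidance (12) and 1 of the histone and DNA modifying enzymes (14). Other lists lacked this excess in the second run. The tubulin list had 10 in the first and 6 in the second, the matrix list 5 and 5, and the oligodendrocyte precursor list 4 and 3. The direction was shared and the test passed in each run for 280 genes, 116 higher and 164 lower. Of the 3231 genes of the pooled test, 1521 had an unadjusted p under 0.05 and the same direction in each run (735 higher and 786 lower). With the share of mitochondrially encoded reads as a covariate 2048 genes passed, 1785 of them among the 3231. With that covariate 17 of the genes named here no longer passed: Atp2b2, Atxn1, Cacna1c, Csmd2, Cspg4, Dkk3, Fcer1g, Gabra5, Gria2, Nlgn1, P2ry12, Pdk4, RGD1559821, Shank2, Slc32a1, Tbc1d16 and Tet3 (limma, adjusted p from 0.053 for Fcer1g to 0.333 for Tet3). Their changes kept their sign, such as 0.46 for Fcer1g, -0.13 for Dkk3, 0.15 for Gria2 and -0.12 for Tet3, against 0.57, -0.15, 0.17 and -0.26 without the covariate. When each rat was left out in turn, 2286 of the 3231 passed in all 28 fits.

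The gene with the smallest p was Gipr, the receptor of the gut hormone GIP, which signals through cAMP. It had 53.1, 69.7 and 104 at 5 months and 97.5, 187 and 256 at 12 months. The ranges overlapped only at the edge, every older library lay above the younger median, and the change was 1.35 ± 0.12 (limma, adjusted p = 1.82e-08), with 1.25 and 1.44 in the first and second run. Aadat, an aminotransferase that makes kynurenic acid, had 90.7, 116 and 145 at 5 months and 143, 169.7 and 210.0 at 12 months, groups that barely touched, and rose by 0.53 ± 0.08 (adjusted p = 4.38e-05). Krt10, a keratin better known from skin, had 40.8, 46.1 and 69.7 at 5 months and 56.4, 77.7 and 97.6 at 12 months, with 16 of 16 older libraries above the younger median, and rose by 0.63 ± 0.09 (adjusted p = 4.38e-05).

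Other genes with small p rose by less. Rock1, a kinase of the actin cytoskeleton, had 589, 759.8 and 859.6 at 5 months and 839, 1019 and 1214 at 12 months and rose by 0.42 ± 0.06. The older libraries all exceeded the younger median and the ranges overlapped only at their edges. Pik3c2a, a class II PI3 kinase of endocytosis, rose by 0.41 ± 0.06 from a median of 476 to 612, Zfp638, an RNA-binding zinc finger protein, by 0.35 ± 0.05, the chromatin reader Phf20l1 by 0.40 ± 0.06, and the ubiquitin ligase March7 by 0.34 ± 0.05 (limma, adjusted p of 8.3e-05 to 9.24e-05 for the 3 last, 4.38e-05 for Pik3c2a and 9.24e-05 for Rock1). Cst3 encodes cystatin C, a secreted inhibitor of cysteine cathepsins and one of the most abundant glial transcripts. Its values were 27057, 32519 and 36782 at 5 months and 34548, 43394 and 57518 at 12 months, overlapping at the edges, and it rose by 0.44 ± 0.07 (adjusted p = 0.000101), with 0.29 and 0.66 in the runs.

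**Figure D1:**
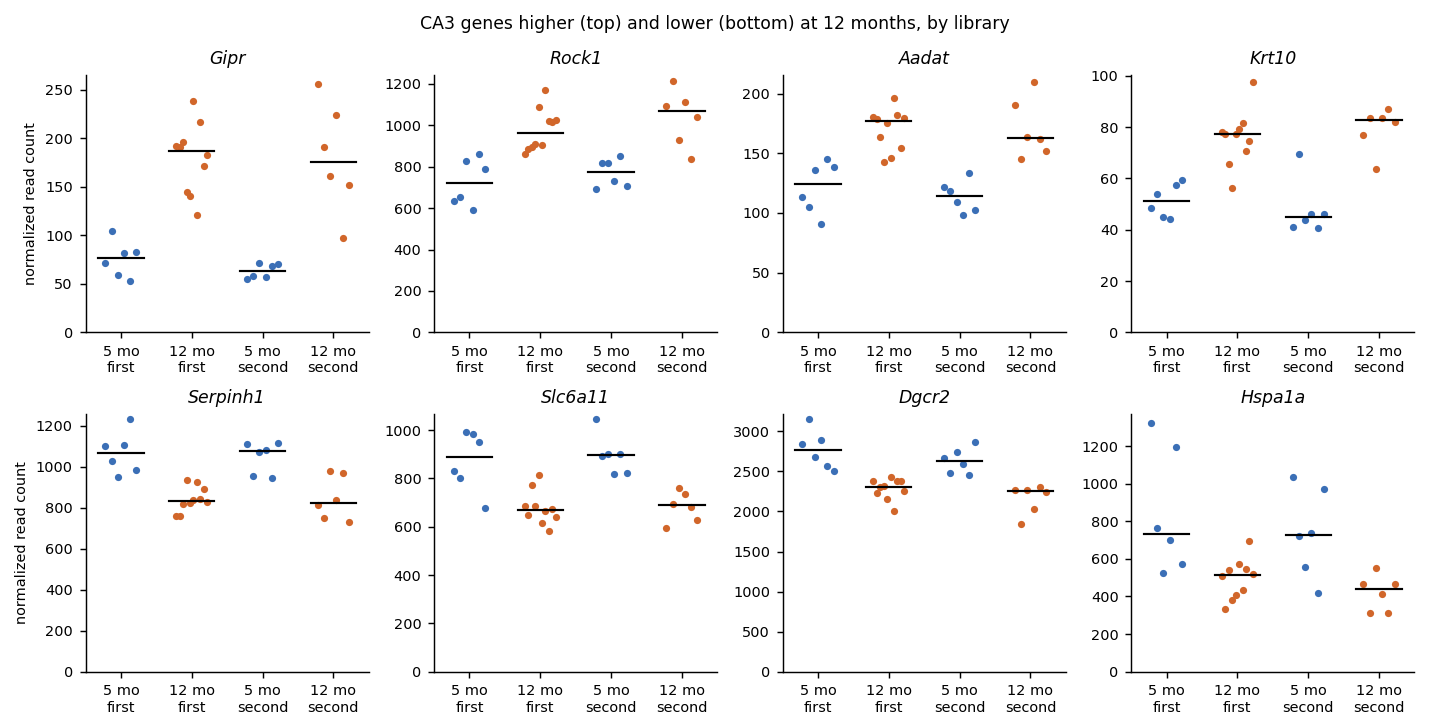
Normalized read counts of 8 genes in each CA3 library (linear axis from 0), by age and run of animal numbers; each dot is 1 rat (blue 5 months, orange 12 months) and bars are medians. Dgcr2 separates the ages without overlap, and each gene shifts in the same direction in both runs.

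Among the lower genes with the smallest p were Serpinh1, Slc6a11 and Dgcr2. Serpinh1, the chaperone of collagen folding, had 944, 1078 and 1233 at 5 months and 729.9, 833 and 982 at 12 months. The ranges met only at the edge, and it fell by 0.33 (log2 change -0.33 ± 0.05; limma, adjusted p = 9.24e-05), -0.34 and -0.31 in the runs. Slc6a11, the astrocytic GABA transporter GAT-3, had 679, 897 and 1044 at 5 months and 583, 677 and 814 at 12 months, with every older library below the younger median, and changed by -0.38 ± 0.06 (adjusted p = 9.47e-05). Dgcr2, an adhesion receptor gene of the DiGeorge region, had 2454, 2673 and 3153 at 5 months and 1840.3, 2271 and 2427 at 12 months. No older library reached the lowest younger one, and the change was -0.27 ± 0.04 (adjusted p = 0.000114).

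Further lower genes had varied roles. Brsk2, a kinase of neuronal polarity, changed by -0.26 ± 0.04, and Srcin1, a scaffold that holds Src inactive at synapses, by -0.31 ± 0.05. Bcl9l, a coactivator of beta-catenin, changed by -0.36 ± 0.06, and Irgq, a GTPase-like gene, by -0.57 ± 0.09 (limma, adjusted p from 0.000114 to 0.000119 over the 4). The inducible heat-shock gene Hspa1a had 416, 728 and 1321 at 5 months and 312, 466 and 697 at 12 months, with every older library below the younger median, and changed by -0.72 ± 0.14 (adjusted p = 0.00109). Clcn2, the ClC-2 chloride channel, changed by -0.91 ± 0.24 (adjusted p = 0.00817), and its values spread widely, between 122 and 567 at 5 months and between 52.1 and 348 at 12 months.

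MHC class II genes had the largest median change of the 8 immune lists in CA3. The rat class II genes lie in the RT1 complex on chromosome 20, with the invariant chain gene Cd74 on chromosome 18. In textbook accounts their promoters share an X box, bound by RFX, and a Y box, an inverted CCAAT bound by NF-Y, and the coactivator CIITA turns them on together. The 300 bases from 250 before to 50 after each start are printed because the 5 genes moved together in the same libraries. Sequences are from RefSeq, build GRCr8, read 5′ to 3′ on the gene's strand, and capitals mark ATTGG or its reverse complement CCAAT (Y box) and AGCAAC (a core of the X box), searched on both strands. They lie at chr20:4515165-4515464 (RT1-Da, plus strand), chr20:4560113-4560412 (RT1-Db1, minus), chr20:4576807-4577106 (RT1-Ba, plus), chr20:4604069-4604368 (RT1-Bb, minus) and chr18:56526956-56527255 (Cd74, plus).
RT1-Da: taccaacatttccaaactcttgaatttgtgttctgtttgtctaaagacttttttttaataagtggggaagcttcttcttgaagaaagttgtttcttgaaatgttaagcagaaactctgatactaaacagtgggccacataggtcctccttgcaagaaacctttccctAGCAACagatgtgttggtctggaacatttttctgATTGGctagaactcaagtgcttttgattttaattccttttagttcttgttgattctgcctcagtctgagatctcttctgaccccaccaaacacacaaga
RT1-Db1: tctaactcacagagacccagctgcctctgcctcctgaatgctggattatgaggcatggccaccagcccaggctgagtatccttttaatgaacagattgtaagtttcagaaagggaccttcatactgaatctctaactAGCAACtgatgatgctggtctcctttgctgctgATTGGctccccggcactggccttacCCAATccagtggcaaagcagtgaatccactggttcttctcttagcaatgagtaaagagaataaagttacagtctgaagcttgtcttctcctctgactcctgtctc
RT1-Ba: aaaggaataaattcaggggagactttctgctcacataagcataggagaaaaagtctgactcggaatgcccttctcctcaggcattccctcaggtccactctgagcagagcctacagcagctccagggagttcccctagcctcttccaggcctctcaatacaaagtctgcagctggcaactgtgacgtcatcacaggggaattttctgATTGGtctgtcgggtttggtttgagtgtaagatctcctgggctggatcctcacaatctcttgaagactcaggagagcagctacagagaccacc
RT1-Bb: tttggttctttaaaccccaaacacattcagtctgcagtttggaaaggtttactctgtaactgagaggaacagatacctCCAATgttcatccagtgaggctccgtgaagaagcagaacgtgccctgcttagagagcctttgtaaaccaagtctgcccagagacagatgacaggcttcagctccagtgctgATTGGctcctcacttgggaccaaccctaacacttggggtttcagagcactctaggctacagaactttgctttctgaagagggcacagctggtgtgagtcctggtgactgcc
Cd74: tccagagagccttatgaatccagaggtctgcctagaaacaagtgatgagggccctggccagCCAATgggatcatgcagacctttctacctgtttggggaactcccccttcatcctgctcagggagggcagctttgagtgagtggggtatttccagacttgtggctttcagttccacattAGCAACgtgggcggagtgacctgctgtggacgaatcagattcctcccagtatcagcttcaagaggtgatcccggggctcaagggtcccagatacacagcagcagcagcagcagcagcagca
ATTGG stood in all 5 windows, at 49 bases before the start in RT1-Da, 80 in RT1-Db1, 43 in RT1-Ba and 61 in RT1-Bb, and reversed at 189 in Cd74, with a second, reversed match at 55 in RT1-Db1 and at 172 in RT1-Bb. AGCAAC stood at 83 in RT1-Da, 113 in RT1-Db1 and 71 in Cd74. Over 33469 promoter windows of this length, 37.5% hold ATTGG on either strand, 14.7% hold AGCAAC and 5.33% hold both. Of the 11 tested class II genes 9 had a window in the table, of which 8 hold ATTGG and 4 AGCAAC. A match is only a match of letters and does not make a site a Y box or an X box. In Cd74 the CCAAT lies further from the start than AGCAAC, unlike the ATTGG of RT1-Da and RT1-Db1.

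RT1-Da, an alpha chain, had 14.9, 36.4 and 52.6 at 5 months and 54.4, 94.4 and 8368 at 12 months. The ages did not overlap, and the top value is replicate 10, against 727.8 in the next library (12-month replicate 8). It rose by 2.28 ± 0.48 (limma, adjusted p = 0.00158), by 2.10 and 2.31 in the runs, and by 1.89 without replicate 10 (adjusted p = 7.41e-05). Cd74, which guides class II assembly, had 129, 192 and 239 at 5 months and 296, 467 and 25188 at 12 months, and its ages did not overlap. It rose by 1.83 ± 0.42 (adjusted p = 0.00339), and by 1.48 without replicate 10. RT1-Bb, a beta chain, had 27.2, 40.1 and 59.8 at 5 months and 54.9, 82.9 and 7386 at 12 months, overlapping at the edge, and rose by 1.79 ± 0.47 (adjusted p = 0.00795) and by 1.41 without replicate 10. RT1-Db1 and RT1-Ba rose by 2.29 ± 0.52 and 1.97 ± 0.45, and by 1.90 and 1.61 without replicate 10. RT1 genes are close relatives, and how the authors' counting divided reads among them is not given in the sources used here.

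**Figure D2:**
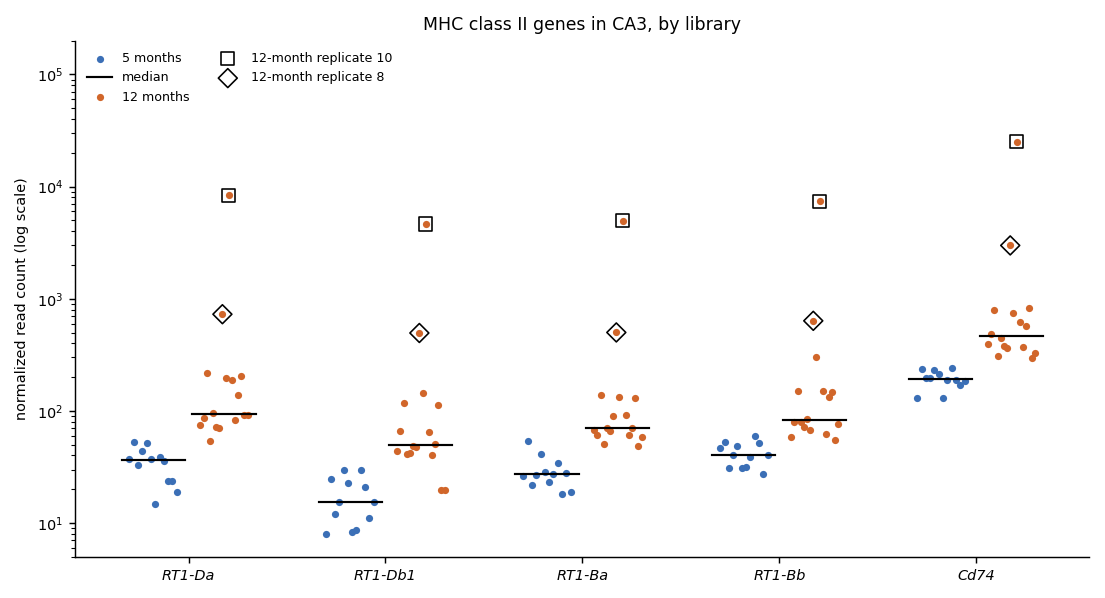
Normalized read counts (log axis) of 5 MHC class II genes in each CA3 library; blue dots are 5 months, orange 12 months, bars medians. 12-month replicate 10 (square) and replicate 8 (diamond) are the highest libraries in all 5 genes, and the remaining older rats still sit mostly above the younger ones.

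The other class II genes moved less or did not pass. Ctss, the cathepsin that trims the invariant chain, rose by 0.44 ± 0.09 from a median of 1506 to 2011 (limma, adjusted p = 0.00156). Ciita, the coactivator itself, had few reads, 2.12, 11.2 and 18.6 at 5 months and 1.12, 10.4 and 196 at 12 months, with overlapping ages and a difference of 0.27 ± 0.41 that did not pass (adjusted p = 0.676). RT1-DMa and RT1-DMb, which load peptides, and RT1-DOb, which restrains them, did not pass, with differences of 0.25 ± 0.14, 0.22 ± 0.17 and 0.45 ± 0.26 (adjusted p = 0.192, 0.372 and 0.215). Of the 11 tested genes of the list 6 rose and 0 fell (54.5%, against 21.7% of all genes, and 7 and 0 without replicate 10). The median change was 0.45, against 0.002 over all genes.

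The genes of resident microglia that passed were all higher at 12 months. Of 27 tested members of the homeostatic microglia list, 15 rose and 0 fell (55.6%, against 21.7% of all genes), with a median change of 0.32, and of 0.31 and 0.32 in the runs. Without replicate 10 the number was again 15. The summed level of the list was 10363.4, 11118.5 and 12219.8 at 5 months and 11821.4, 12676.6 and 28527.6 at 12 months. Cd53, a tetraspanin of leukocytes, had 43.6, 59.4 and 74.3 at 5 months and 64.7, 94.5 and 222 at 12 months, with every older library above the younger median, and rose by 0.68 ± 0.13 (limma, adjusted p = 0.000952; 0.60 without replicate 10). Trem2, a lipid receptor of microglia, rose by 0.41 ± 0.08 from a median of 131 to 175, and Mertk, which engulfs dying cells, by 0.31 ± 0.06 from a median of 929 to 1166 (adjusted p = 0.000981 and 0.00104). Of markers chosen after their values were seen, P2ry12, the ADP receptor, rose by 0.34 ± 0.09 and Tmem119 by 0.37 ± 0.09 (adjusted p = 0.0115 and 0.00314). Of 21 activation and phagocyte genes 3 rose and 0 fell (14.3%, against 21.7% of all genes in either direction and 10.9% higher, median 0.15). Without replicate 10 these were 3 and 1, and 5 passed without 12-month replicate 2.

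Receptors that sense immune complexes and nucleic acids were also among the higher genes. Fcgr2b, the inhibitory Fc gamma receptor, was one of the 7 genes without overlap and rose by 0.93 ± 0.13, or by 0.83 without replicate 10. Fcer1g, the gamma chain shared by activating Fc receptors, and Lyn, a Src kinase of inhibitory signalling, rose by 0.57 ± 0.15 and 0.45 ± 0.11 (limma, adjusted p = 0.00624 and 0.00612). At 12 months they reached 699.5 and 937.4 in the first run, against medians there of 204.9 and 356.7. In the second run their highest values were 279.4 and 404.0. In the Fc gamma list 6 of 12 rose and 0 fell (median 0.38; 7 and 0 without replicate 10), but 3 passed with the mitochondrial share as covariate. Tlr7, the endosomal sensor of single-stranded RNA, had 41.4, 53.0 and 83.3 at 5 months and 65.8, 106 and 299.5 at 12 months. The ranges overlapped at their edges, and it rose by 0.996 ± 0.152 (adjusted p = 0.000101), 0.90 and 1.09 in the runs and 0.90 without replicate 10. Tlr13, a sensor of bacterial ribosomal RNA, rose by 0.79 ± 0.14 and Tlr3, a sensor of double-stranded RNA, by 0.62 ± 0.13. Tril, a Toll-like receptor partner of astrocytes, fell by 0.18 (adjusted p = 0.00633). The list had 7 of 17 higher and 1 lower (47.1%, against 21.7% of all genes, median 0.20), and 7 and 2 without replicate 10.

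Complement genes moved in part. C3, the central component, had 914, 1192 and 1464 at 5 months and 1413, 1946 and 9858 at 12 months, overlapping slightly, and rose by 0.87 ± 0.18 (limma, adjusted p = 0.00155) and by 0.73 without replicate 10. Cd59, a membrane blocker of the terminal complex, rose by 0.19 ± 0.04, and Csmd2, a neuronal protein with complement control domains, changed by -0.24 ± 0.07 (adjusted p = 0.0028 and 0.0119). In the list 5 of 22 rose and 1 fell (27.3%, against 21.7% of all genes in either direction and 10.9% higher, median 0.23). Without replicate 10, 7 rose and 1 fell, and by edgeR on recovered reads 10 rose and 1 fell.

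All interferon-induced genes that passed were higher. Of 47 tested, 19 were higher and 0 lower (40.4%, against 21.7% of all genes in either direction and 10.9% higher). The median was 0.31, with 0.28 and 0.34 in the runs, and 17 rose and 1 fell without replicate 10. The count of 19 depended on single young rats. It was 10 without 5-month replicate 2 and 12 without 5-month replicate 3, and it was 12 with the mitochondrial share as covariate. Ifit3, an antiviral gene of the type I interferon response, had 9.86, 17.8 and 40.3 at 5 months and 21.9, 42.1 and 59.7 at 12 months, overlapping in part, and rose by 1.04 ± 0.18 (limma, adjusted p = 0.00046; 1.02 without replicate 10). The GTPases Igtp and Irgm rose by 0.61 ± 0.15 and 0.51 ± 0.14 (limma, adjusted p = 0.00562 and 0.00868). At 12 months they reached 327.0 and 301.4 in the first run, against medians there of 93.3 and 111.5. In the second run their highest values were 164.0 and 148.9. Irf9, which carries the interferon signal to DNA, rose by 0.26 ± 0.07 (limma, adjusted p = 0.00635). The promoter of Ifit3 is printed as the example with the largest change among these (RefSeq, GRCr8, chr1:241527076-241527375, plus strand), with capitals on an interferon response element, searched on both strands as GAAA, any 2 bases and GAAA again. It stands on the opposite strand, 44 bases before the start.
Ifit3: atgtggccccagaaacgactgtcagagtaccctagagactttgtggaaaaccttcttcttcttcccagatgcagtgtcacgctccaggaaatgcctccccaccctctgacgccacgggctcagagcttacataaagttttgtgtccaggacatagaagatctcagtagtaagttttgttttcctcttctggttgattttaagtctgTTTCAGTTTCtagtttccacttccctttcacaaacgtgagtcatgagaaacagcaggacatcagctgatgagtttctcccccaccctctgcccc
Of the list, 38 tested members had a window and 25 held this motif on either strand, as did 11 of the 16 matched among those that rose, against 3.92% of all 33469 windows.

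Some MHC class I and peptide supply genes rose. B2m, the light chain of class I, had 2529, 2941 and 3381 at 5 months and 3001, 3615 and 8720.0 at 12 months, and every older library was above the younger median. It rose by 0.41 ± 0.10 (limma, adjusted p = 0.00609; 0.33 without replicate 10). Psme1, a proteasome activator of antigen processing, rose by 0.39 ± 0.11, Erap1, a trimming peptidase, by 0.31 ± 0.08, and the class I gene RT1-CE7 by 0.52 ± 0.17 (limma, adjusted p = 0.0139, 0.00942 and 0.0281). At 12 months Psme1 and RT1-CE7 reached 1250.2 and 1475.8 in the first run, against medians there of 464.1 and 372.3. In the second run their highest values were 663.3 and 424.9. In the class I list 5 of 27 rose and 0 fell (18.5%, against 21.7% of all genes in either direction and 10.9% higher, median 0.18). Without replicate 10, 6 rose and 1 fell. In the lysosomal list 10 of 46 rose and 3 fell (28.3%; median 0.08), and 5 and 2 with the mitochondrial share as covariate. Its cholesterol carrier Npc2 rose by 0.38 ± 0.10 and the heparan sulfate hydrolase Naglu by 0.30 ± 0.08 (adjusted p = 0.00987 and 0.00629).

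**Figure D3:**
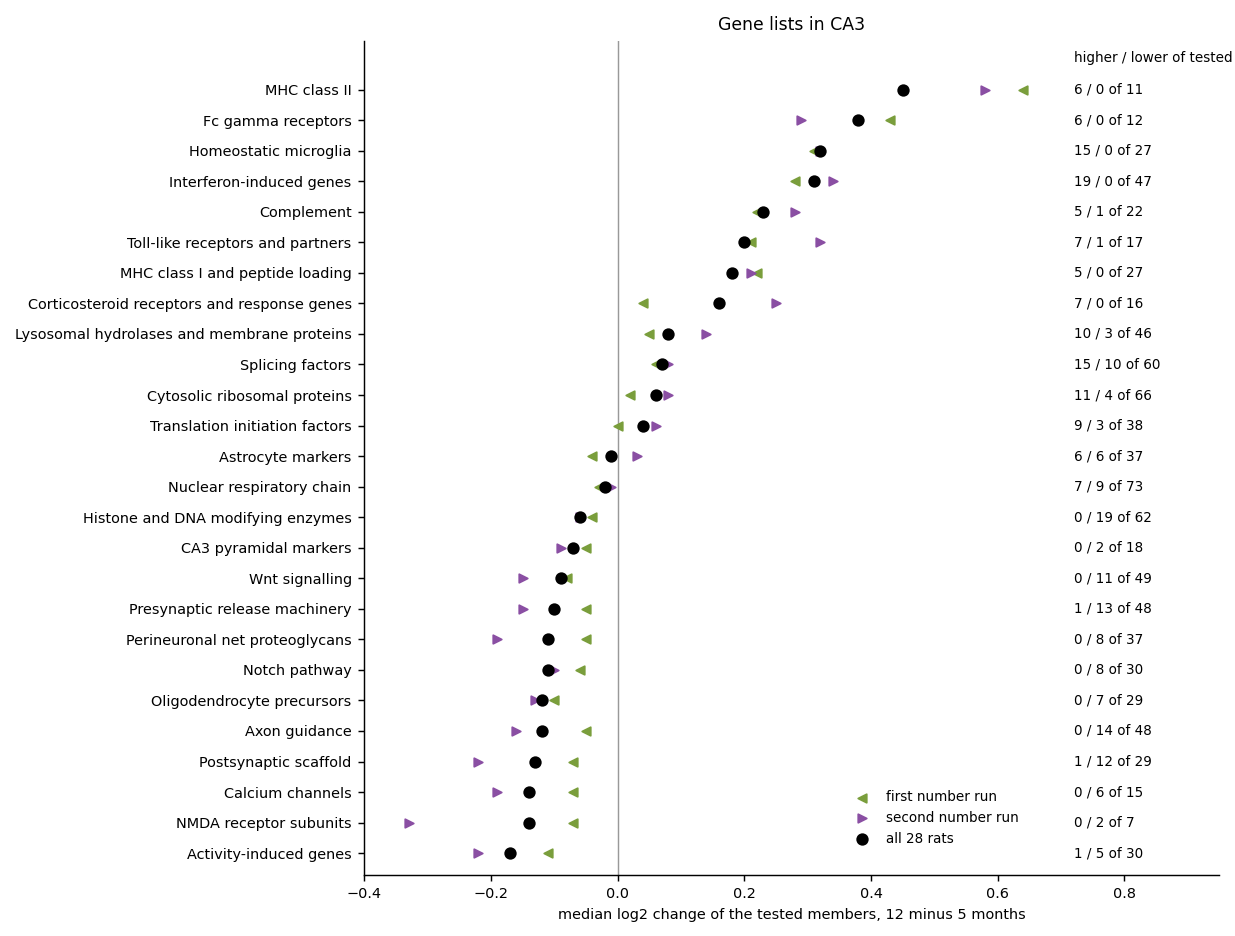
Median log2 change between 12 and 5 months over the tested members of 26 gene lists in CA3, for all rats (black) and for each run (triangles), with the numbers of members higher and lower by limma at right. The 7 immune lists at the top lie between 0.18 and 0.45, and the postsynaptic, calcium channel and axon guidance lists between -0.12 and -0.14. The remaining immune list, microglial activation and phagocyte genes, is not drawn (median 0.15).

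Synaptic genes that passed were mostly lower at 12 months. In the postsynaptic scaffold list 12 of 29 fell and 1 rose (44.8%, against 21.7% of all genes in either direction and 10.8% lower). The median was -0.13, and 7 fell and 0 rose with the mitochondrial share as covariate. Shank1, a master scaffold of the excitatory postsynapse, had 10507, 11951 and 15344 at 5 months and 7403, 9142 and 12957 at 12 months, with 15 of 16 older libraries below the younger median, and changed by -0.33 ± 0.07 (limma, adjusted p = 0.00155). Nlgn2, the neuroligin of inhibitory synapses, had 3714, 4282 and 5051 at 5 months and 2964, 3426 and 4281 at 12 months, overlapping in part, and changed by -0.28 ± 0.06. Nlgn3 changed by -0.21 ± 0.04 and Shank2 by -0.17 ± 0.05 (adjusted p = 0.00124, 0.00158 and 0.00914). Nlgn1, of excitatory synapses and outside the naming rule, was the member that rose, by 0.17 ± 0.05 (adjusted p = 0.0114). In the first run alone 0 members passed (median -0.07) and in the second 11 (median -0.22).

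Presynaptic genes that passed were mostly lower as well. Nrxn2, a neurexin that binds neuroligins across the cleft, had 5479, 6601 and 7887 at 5 months and 4618, 5242 and 6726 at 12 months, overlapping in part, and changed by -0.31 ± 0.05 (limma, adjusted p = 0.000297), -0.29 and -0.31 in the runs. Unc13a, which primes vesicles for release, changed by -0.25 ± 0.05, the vesicle GTPase Rab3a by -0.18 ± 0.05 and the vesicle protein Sv2a by -0.15 ± 0.04 (adjusted p = 0.00155, 0.00612 and 0.00413). Of 48 tested 13 fell and 1 rose (29.2%, against 21.7% of all genes in either direction and 10.8% lower, median -0.10). However, 9 passed without 5-month replicate 7, without 5-month replicate 9, or with the mitochondrial share as covariate.

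Most calcium signalling genes that passed were lower. Camk2a, the kinase of synaptic potentiation, had 29129.5, 31114 and 38003 at 5 months and 19006, 25894 and 32039 at 12 months, overlapping in part, and changed by -0.29 ± 0.06 (limma, adjusted p = 0.00145). Its partner Camk2b changed by -0.25 ± 0.06, and Nrgn, neurogranin, which binds calmodulin, by -0.27 ± 0.08 (adjusted p = 0.00482 and 0.0213). Of 15 voltage-gated calcium channel genes 6 fell and 0 rose (median -0.14), and 3 fell and 1 rose with the mitochondrial share as covariate. Cacna1c, the L-type channel Cav1.2, changed by -0.21 ± 0.06, and the T-type channels Cacna1h and Cacna1i by -0.32 ± 0.08 and -0.34 ± 0.08 (adjusted p = 0.00736, 0.00589 and 0.0037). For Cacna1c the first and second run had -0.07 and -0.41. Slc8a2, a sodium-calcium exchanger, Atp2b2, a calcium pump of the plasma membrane, and the store-operated channel Orai2 changed by -0.31 ± 0.07, -0.18 ± 0.05 and -0.28 ± 0.06 (adjusted p = 0.0037, 0.00864 and 0.00204). Among the 29 genes of stores, pumps and buffers 5 fell and 2 rose (24.1%, near the 21.7% of all genes, median -0.07). With the mitochondrial share as covariate 3 fell and 0 rose.

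Kainate receptor genes, the class CA3 is known for, split. Grik5 (GluK5) had 3494, 4152 and 5092 at 5 months and 2622, 3386 and 3873 at 12 months, overlapping in part, and changed by -0.32 ± 0.06, whereas Grik1 (GluK1) had 129.6, 176 and 222 at 5 months and 179, 227 and 278 at 12 months and changed by 0.36 ± 0.07; in each, 16 of 16 older libraries lay on the changed side of the younger median (limma, adjusted p = 0.000952 and 0.00132). Both held within the runs in sign, -0.31 and -0.37 for Grik5 and 0.29 and 0.43 for Grik1. The other 5 of 7 tested members, Grik4 among them, did not pass, so 28.6% passed, against 21.7% of all genes. In the NMDA receptor list Grin2c and Grin2d fell, by 0.28 and 0.38 in log2 (limma, adjusted p = 0.00232 and 0.000868). The other 5 of 7 did not pass (28.6% passed). Of 23 AMPA receptor and auxiliary genes 5 fell and 2 rose (30.4%, against 21.7% of all genes). The subunits Gria2 (0.17 ± 0.05) and Gria3 (0.17 ± 0.05) were higher and the auxiliary Cacng8 lower (-0.29 ± 0.06) (limma, adjusted p = 0.0169, 0.0179 and 0.0019). The AMPA count was 4 without any 1 of 5-month replicates 1, 2, 4, 5, 7 and 9 and 12-month replicates 7 and 11.

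Inhibitory and ion channel genes were mixed. The GABA-A subunit Gabra5 rose by 0.19 ± 0.05, while Lhfpl4, which anchors these receptors at synapses, had 359, 439.7 and 589 at 5 months and 279, 353 and 425 at 12 months and fell by 0.35 (limma, adjusted p = 0.0123 and 0.00174). In that list 3 of 18 rose and 2 fell (27.8%, against 21.7% of all genes), and 0 and 2 with the mitochondrial share as covariate. Gabbr2, a GABA-B subunit, changed by -0.16 ± 0.05 and the vesicular GABA transporter Slc32a1, an interneuron marker, by -0.27 ± 0.07 (adjusted p = 0.012 and 0.00885). Of 21 interneuron markers 2 fell and 0 rose (9.52%, below the 21.7% of all genes, and 1 without 5-month replicate 1, 7 or 12). Their summed level was 35321.3 to 40560.1 at 5 months and 34661.3 to 43306.7 at 12 months. The channel gene Hcn3 changed by -0.32 ± 0.07 (adjusted p = 0.00195), and in the list of SK, BK, M-type and HCN channels 3 of 15 fell and 0 rose. Scn2b, a sodium channel beta subunit, changed by -0.29 ± 0.05 and the alpha subunit Scn1a by 0.16 ± 0.05 (adjusted p = 0.000793 and 0.0159). The nicotinic subunits Chrnb2 and Chrna4 changed by -0.22 ± 0.05 and -0.34 ± 0.08 (adjusted p = 0.00149 and 0.00486).

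Some immediate early genes, which neurons switch on with activity, were lower. Egr1 had 1397, 2070.0 and 2595 at 5 months and 1381, 1682 and 2138 at 12 months, overlapping widely, and changed by -0.25 ± 0.07 (limma, adjusted p = 0.0148). Egr2 changed by -0.65 ± 0.18 and Fosl2 by -0.43 ± 0.10, while the phosphatase Dusp1, also induced by glucocorticoids, rose by 0.42 ± 0.12 (adjusted p = 0.0102, 0.0041 and 0.012). Of 30 tested 5 fell and 1 rose (a share below the 21.7% of all genes; median -0.17), and 10 fell and 1 rose with the run as a covariate.

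Axon guidance genes that passed were lower. Of 48 tested 14 fell and 0 rose (29.2%, against 21.7% of all genes in either direction and 10.8% lower). The median change was -0.12, with -0.05 and -0.16 in the runs, but 8 fell and 2 rose with the mitochondrial share as covariate. Ephb6, an ephrin receptor, had 1322, 1701 and 1896 at 5 months and 1073, 1321 and 1653 at 12 months, overlapping in part, and changed by -0.28 ± 0.06. The semaphorin receptors Plxnb1 and Plxna3 changed by -0.23 ± 0.05 and -0.22 ± 0.05, and the netrin-like Ntng2 by -0.36 ± 0.09 (limma, adjusted p from 0.0018 to 0.00434 over the 4). The mean level of the list was below the younger median in 16 of 16 older libraries. Gap43, the growth cone protein, had 4096, 4462 and 5177 at 5 months and 2963, 3872 and 4513 at 12 months and changed by -0.28 ± 0.06, the actin regulator Wasf3 by -0.26 ± 0.05 and profilin Pfn1 by -0.34 ± 0.09 (adjusted p = 0.00125, 0.000928 and 0.00754). Among neurofilament and actin genes 6 of 21 fell and 0 rose (28.6%, against 21.7% of all genes), a count that was 10 without 12-month replicate 4. Tubb3, the neuronal tubulin, and Tubb5 changed by -0.24 ± 0.05 and -0.18 ± 0.04 (limma, adjusted p = 0.000767 and 0.00359). In the tubulin list 9 of 29 fell and 4 rose (44.8%, against 21.7% of all genes). Tubulins are a family with near-identical stretches, so reads may be divided between members.

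**Figure D4:**
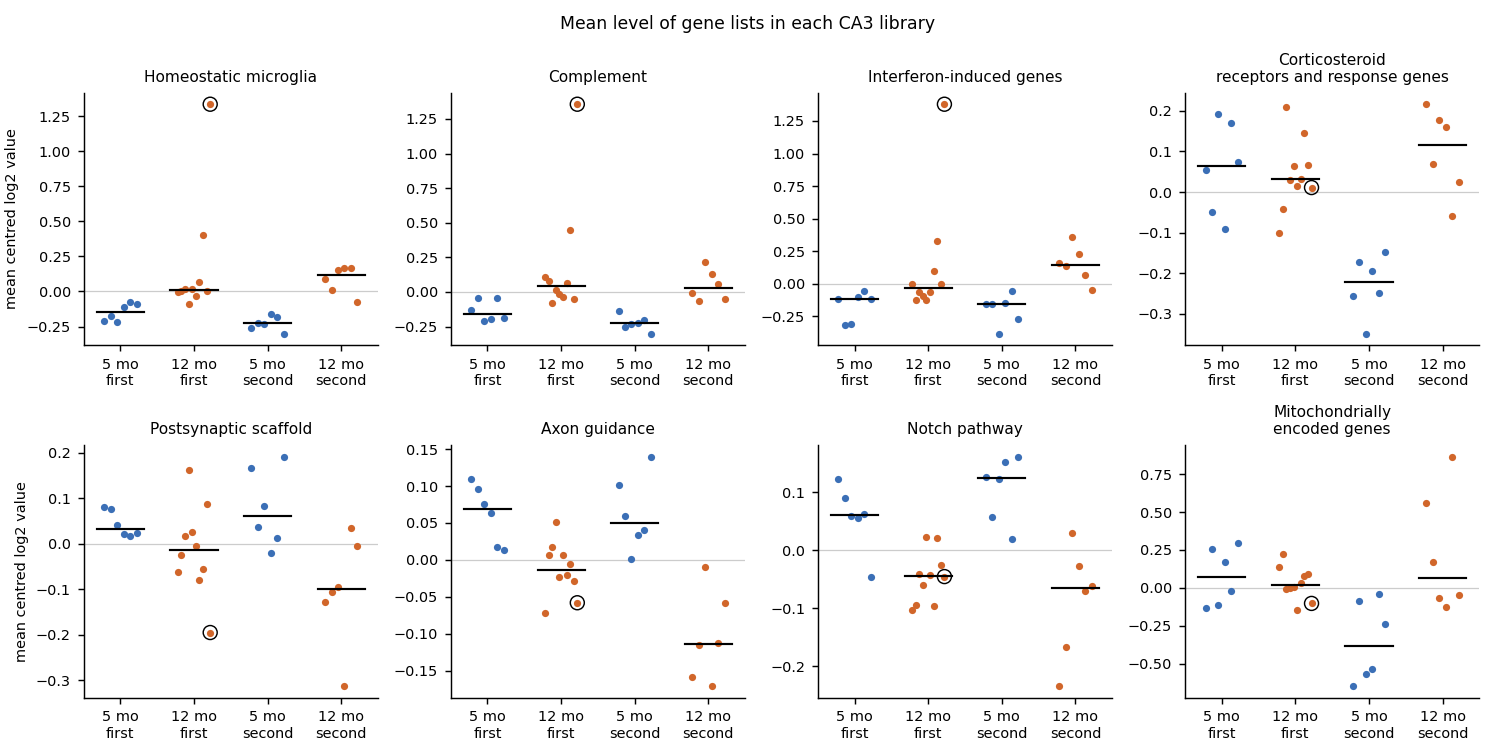
Mean centred log2 level of 8 gene lists in each CA3 library, by age and run (blue 5 months, orange 12 months, bars medians, black ring 12-month replicate 10). The ring is the highest library in the 3 immune lists, the axon guidance and Notch lists lie lower at 12 months in both runs, and the corticosteroid and mitochondrially encoded lists differ between the ages mainly in the second run.

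Oligodendrocyte precursor genes passed at about the share of all genes in either direction, and all that passed were lower. Of 29 tested 7 fell and 0 rose (24.1%, against 21.7% of all genes in either direction and 10.8% lower, median -0.12). Cspg4, the NG2 proteoglycan, had 942, 1077 and 1192 at 5 months and 814, 946 and 1095 at 12 months, overlapping in part, and changed by -0.20 ± 0.05, and Fyn, a kinase of myelination, by -0.14 ± 0.03 (limma, adjusted p = 0.00763 and 0.00158). Mature myelin genes were split, with 5 of 39 higher and 3 lower (median 0.04). Among them Il33, an alarmin of oligodendrocytes, had 220.5, 299.6 and 349 at 5 months and 303, 373 and 529 at 12 months and rose by 0.36 ± 0.08, and Adamts4, a proteoglycan protease, changed by -0.40 ± 0.09 (adjusted p = 0.00183 and 0.00258). This myelin count was 5 without 5-month replicate 7, 9 or 10. In the matrix list 8 of 49 fell and 0 rose (16.3%, against 21.7% of all genes in either direction and 10.8% lower). Lamb2 (laminin beta 2, -0.34 ± 0.06) and Agrn (agrin, -0.27 ± 0.05) were among them (limma, adjusted p = 0.000794 and 0.000928). With the mitochondrial share as covariate 4 fell and 1 rose. Of 37 perineuronal net genes 8 fell and 0 rose (21.6%, against 21.7% of all genes in either direction and 10.8% lower, median -0.11). Those that fell included the proteases Mmp24 (-0.31 ± 0.07) and Mmp17 (-0.27 ± 0.06) (limma, adjusted p = 0.0022 and 0.0019). With that covariate 4 perineuronal net genes fell and 1 rose.

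Astrocyte genes went either way. Mt3, a zinc-binding metallothionein of brain, had 4316, 5011 and 6581 at 5 months and 2729.7, 3749 and 4706 at 12 months, overlapping in part, and changed by -0.48 ± 0.08 (limma, adjusted p = 0.000245), with -0.21 and -0.82 in the runs. Etnppl, an enzyme of phosphoethanolamine breakdown, had 168, 238 and 302 at 5 months and 260.2, 298 and 372 at 12 months and rose by 0.40 ± 0.08, and Itih3, a hyaluronan-binding inhibitor, by 0.15 ± 0.03 (adjusted p = 0.000928 and 0.00211). Of 37 tested 6 rose and 6 fell (32.4%, against 21.7% of all genes, median -0.01). The summed level was 283322.1 to 333134.6 at 5 months and 280937.5 to 331338.2 at 12 months. Vessel lists moved little, with 1 of 38 endothelial genes higher and 1 lower (5.26%, and 4 in all without 5-month replicate 6). Of 29 mural genes 2 were lower (6.9%), against 21.7% of all genes in either direction.

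Of the Notch and Wnt lists 8 and 11 genes passed, all lower. Notch1, the receptor of neural stem cells and astrocytes, had 1117, 1366 and 1500.0 at 5 months and 899, 1072 and 1274 at 12 months, with every older library below the younger median, and changed by -0.33 ± 0.06 (limma, adjusted p = 0.000293). The ligand Jag2 changed by -0.27 ± 0.06 and the target Hey1 by -0.34 ± 0.08 (adjusted p = 0.002 and 0.00255). Of 30 tested Notch genes 8 fell and 0 rose (26.7%, against 21.7% of all genes in either direction and 10.8% lower, median -0.11). The mean of the Notch list was below the younger median in 16 of 16 older libraries. In the Wnt list 11 of 49 fell and 0 rose (22.4%, against 21.7% of all genes in either direction and 10.8% lower, median -0.09). With the mitochondrial share as covariate 6 fell. The coreceptor Lrp5 changed by -0.35 ± 0.08, Dvl3, which relays the signal, by -0.20 ± 0.04, and Apc2, a neuronal relative of APC, by -0.24 ± 0.05 (adjusted p = 0.00284, 0.00101 and 0.00176).

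Of the nuclear genes that passed, histone and DNA modifying enzymes were all lower and splicing factors went either way. Among enzymes that modify histones and DNA 19 of 62 fell and 0 rose (30.6%, against 21.7% of all genes in either direction and 10.8% lower). The median was -0.06, and 9 fell with the mitochondrial share as covariate. Ep400, of a histone exchange complex, had 2307, 2545 and 2838 at 5 months and 2049.6, 2197 and 2421 at 12 months, overlapping in part, and changed by -0.19 ± 0.03 (limma, adjusted p = 0.000297). The deacetylase Hdac4 changed by -0.27 ± 0.05, the acetyltransferase Kat6b by -0.26 ± 0.05 and the remodeller Arid1b by -0.22 ± 0.05 (adjusted p = 0.000868, 0.00141 and 0.00116). Splicing factors moved in opposite directions, with 15 of 60 higher and 10 lower (41.7%; median 0.07). Srsf3, an SR protein, had 1264, 1427 and 1561 at 5 months and 1530.2, 1720.4 and 2108 at 12 months. It rose by 0.29 ± 0.05 (limma, adjusted p = 0.000114), with ranges that met at the edge. Rbfox3 (NeuN), Nova2 and Celf2 changed by -0.34 ± 0.07, -0.31 ± 0.07 and -0.24 ± 0.05 (limma, adjusted p = 0.00216, 0.00392 and 0.00149). These 4 had the smallest p of the splicing factors that passed. Whether the direction went with cell type was not tested.

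Protein synthesis genes were mixed. In the cytosolic ribosomal list 11 of 66 rose and 4 fell (22.7%, near the 21.7% of all genes; median 0.06), but 3 rose and 10 fell with the mitochondrial share as covariate. Among them Rpl21 rose by 0.40 ± 0.09 and Rpl37a changed by -0.44 ± 0.10 (limma, adjusted p = 0.00259 and 0.0039). Ribosomal protein genes have many processed copies, so their reads may be shared. Of 38 initiation factors 9 rose and 3 fell (31.6%), but 1 rose and 6 fell with that covariate. Eif4g2 rose by 0.16 ± 0.04, and Eif4ebp2, the neuronal brake on cap-dependent translation, had 463, 516 and 549 at 5 months and 408, 448 and 524 at 12 months and changed by -0.18 ± 0.04 (adjusted p = 0.00497 and 0.00301).

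Chaperones did not move as a block. Against the fall of Hspa1a, the cytosolic Hsp90aa1 (outside the naming rule) had 809, 2153 and 3896 at 5 months and 1899, 4114 and 7376 at 12 months, overlapping widely, and rose by 0.77 ± 0.19 (limma, adjusted p = 0.00593). The reticulum chaperone Hyou1 changed by -0.17 ± 0.03 and Hspa13 by 0.24 ± 0.05 (adjusted p = 0.000793 and 0.00174). In the list 5 of 45 rose and 3 fell (17.8%, below the 21.7% of all genes). Antioxidant genes had 8 of 39 higher and 2 lower (25.6%, against 21.7% of all genes, and 3 and 4 with the mitochondrial share as covariate). Gsta1, a glutathione transferase, rose by 0.28 ± 0.05. The peroxiredoxin Prdx5 and microsomal Mgst3 changed by -0.23 ± 0.05 and -0.44 ± 0.10 (limma, adjusted p = 0.000868, 0.00146 and 0.00279 over the 3). Cholesterol genes had 8 of 38 lower and 2 higher (26.3%, against 21.7% of all genes), and 5 and 1 with the mitochondrial share as covariate. Cyp46a1, which turns brain cholesterol into 24-hydroxycholesterol in neurons, had 2963, 3411 and 4179 at 5 months and 2024, 2902 and 3309 at 12 months, with every older library below the younger median, and changed by -0.32 ± 0.07, and Srebf2, the regulator of cholesterol synthesis, by -0.23 ± 0.05 (adjusted p = 0.00157 and 0.00338).

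Mitochondrially encoded and glucocorticoid-responsive genes had larger median changes in the second run. Of 13 mitochondrially encoded genes 5 rose and 0 fell (38.5%, against 21.7% of all genes), with medians of -0.01 and 0.64 in the first and second run. The count was 3 without 5-month replicate 7, 9 or 10 and 8 without 5-month replicate 6. Mt-co3, a subunit of complex IV, had 96843, 142426 and 181157 at 5 months and 147970.0, 170598 and 260361 at 12 months, and changed by 0.39 ± 0.09 (limma, adjusted p = 0.00359; 0.17 and 0.68 in the runs). Of 73 nuclear respiratory chain genes 7 rose and 9 fell (21.9%, near the 21.7% of all genes, median -0.02). This count of 16 was 10 without 5-month replicate 1, 5-month replicate 4 or 12-month replicate 12. Of 16 corticosteroid response genes 7 rose and 0 fell (43.8%; median 0.16), 0 in the first run (median 0.04) and 8 in the second (median 0.25), and 4 without 5-month replicate 7 or without 5-month replicate 9. Sgk1, a kinase induced by corticosteroids, had 2786, 4494 and 7292 at 5 months and 4343, 7123 and 10681 at 12 months, overlapping widely, and rose by 0.56 ± 0.15 (adjusted p = 0.00985; 0.18 and 1.03 in the runs). Tsc22d3 (GILZ), another such target, rose by 0.27 ± 0.06 (limma, adjusted p = 0.00168, with 0.12 and 0.48 in the runs). In the direct test of the run difference described below, Mt-co3, Sgk1 and Tsc22d3 were not among the named genes that passed. With the mitochondrial share as covariate 3 corticosteroid response genes rose and 0 fell, and of the mitochondrially encoded genes 1 rose and 1 fell. With the run as covariate 8 and 5 rose and 0 fell in either list.

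The difference of the age effect between the runs was tested directly. It passed in 86 genes (0.577%), 54 with a higher and 32 with a lower change in the second run, and 68 of them had opposite signs in the runs. With 1 rat left out the count ran from 30 (without 5-month replicate 6 or 7) to 166 (without 5-month replicate 11). Pdk4, a mitochondrial kinase that inhibits pyruvate dehydrogenase, was first among them. In the first run its lowest, median and highest values were 182.4, 343.8 and 489.2 at 5 months and 188.9, 304.7 and 386.9 at 12 months. In the second run they were 83.6, 115.1 and 133.3 at 5 months and 260.2, 378.3 and 522.0 at 12 months. The younger rats of the second run lay below all other groups. Its changes in the runs were -0.13 and 1.73, a difference of 1.87 ± 0.26 (limma, adjusted p = 0.000566). Atxn1, the ataxin-1 gene, had changes of -0.06 and -0.70, Tet3, which oxidises methylcytosine, of 0.04 and -0.65, Tbc1d16 of -0.03 and -0.51, and the gene model RGD1559821 of 0.15 and -1.42 (adjusted p of the difference 0.0068, 0.00416, 0.013 and 0.00536). The models LOC100364457, LOC103692829 and LOC100362149 had changes of 0.18, 0.09 and 0.05 in the earlier and of 2.02, 1.80 and 0.92 in the later numbers (adjusted p = 0.00252, 0.00416 and 0.00252). These 8 calls held when any 1 rat was left out.

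The age effect of CA3 was then set against that of the other subregions of the same rats, as a within-rat difference. Against the DG, 393 of 14378 genes differed (2.73%), 199 with a higher and 194 with a lower change in CA3. In 258 of these the signs were opposite, and in 319 the change was larger in the DG. Of the 393, 82 passed in CA3 and 318 in the DG, and 28 in each. Fut4, a fucosyltransferase that makes the Lewis X glycan, had 29.1, 33.0 and 67.8 at 5 months and 32.2, 52.6 and 88.1 at 12 months in CA3, overlapping in part, and changed by 0.47 there and by -0.63 in the DG, a difference of 1.10 ± 0.13 (SE; limma, adjusted p = 5.11e-05). Cst3 rose in CA3 by 0.44 and did not pass in the DG (0.02), a difference of 0.43 ± 0.10 (adjusted p = 0.0285). Mrpl14, of the mitochondrial ribosome, changed by 0.19 in CA3 and -0.32 in the DG (adjusted p = 0.00202), and its call within CA3 was lost without 5-month replicate 2 or 4 (adjusted p = 0.0569 and 0.0513). Nudt19, a coenzyme A hydrolase, Oaz1, the antizyme of polyamine synthesis, the AP-1 gene Jund and the sorting adaptor Gga2 did not pass in CA3 (0.11, 0.14, 0.15 and 0.02). They were lower in the DG (-0.38, -0.30, -0.34 and -0.36; limma, adjusted p of the difference 0.00316, 0.00839, 0.011 and 0.011).

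In the other direction, Magi2, a synaptic scaffold, had 1428, 1627 and 1795 at 5 months and 1128, 1372 and 1644 at 12 months in CA3, overlapping in part, and fell there (-0.22) but did not pass in the DG (0.13), a difference of -0.35 ± 0.05 (limma, adjusted p = 0.00149). Bcl7a, a subunit of SWI/SNF remodellers, changed by -0.30 and 0.19, and the model AABR07026797.1 by -0.31 and 0.49 (adjusted p = 0.00515 and 0.00701). Gsk3b, a kinase of Wnt and insulin signalling, and the ubiquitin ligase Hecw1 did not pass in CA3 (-0.10 and -0.12) and were higher in the DG (0.35 and 0.34; adjusted p of the difference 0.011 and 0.00839). The model AABR07001734.1 was higher at 12 months in each, by 1.04 in CA3 and 3.19 in the DG, a difference of -2.16 ± 0.28 (adjusted p = 0.000149). The difference calls of the other 12 genes held when any 1 rat was left out, while that of Cst3 was lost without 5-month replicate 7, 9 or 11 (limma, adjusted p = 0.0542, 0.0509 and 0.0607). The total of 393 depended more on single rats and on the run: leaving out 1 rat moved it by over 1.5 times in 20 of 28 cases, and it was 1 in the first run alone, 757 in the second, 115 without 5-month replicate 11 and 896 without 5-month replicate 2.

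**Figure D5:**
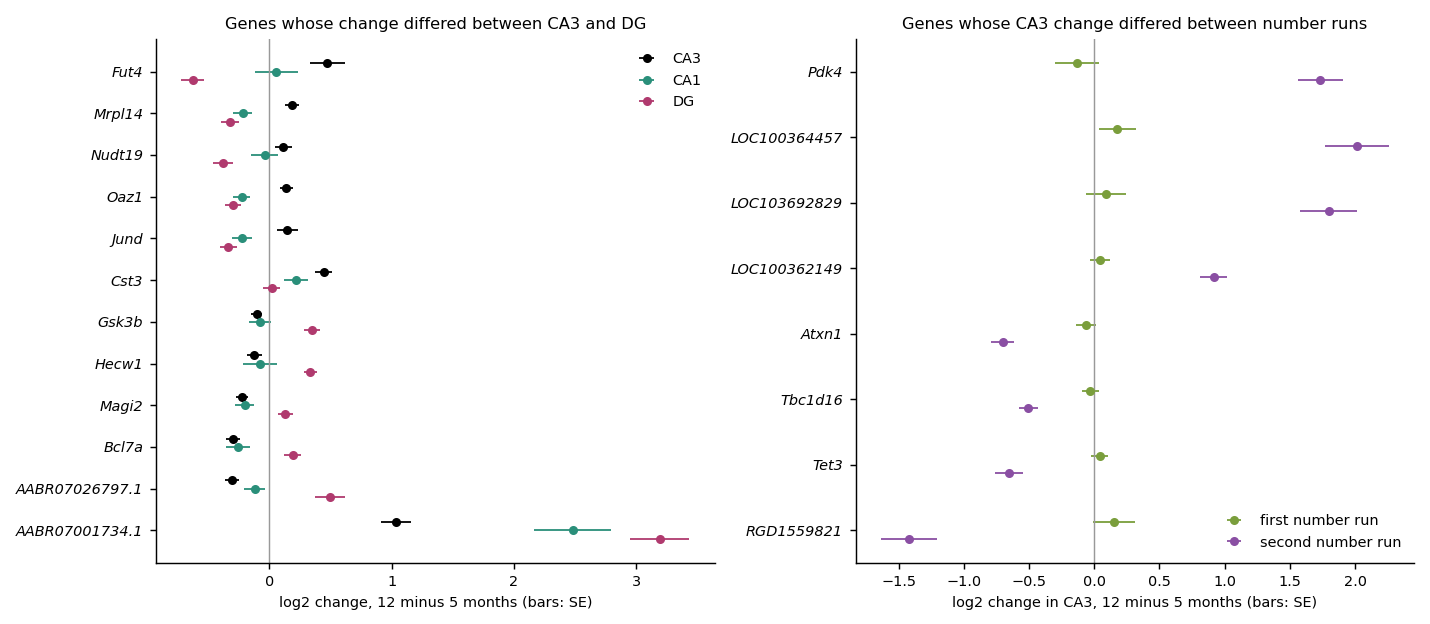
Left, log2 age change with its SE in CA3 (black), CA1 (green) and DG (magenta) for 12 genes that differed between CA3 and DG; right, the CA3 change in the first and second run for 8 genes that differed between runs. Fut4 rises in CA3 and falls in the DG, and Pdk4 lies at -0.13 and 1.73 in the runs.

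Against CA1, 0 of 14513 genes passed by limma, with a lowest adjusted p of 0.0617, while 1444 (9.95%) had an unadjusted p under 0.05. The difference in Gipr was 1.03 ± 0.21 (1.35 in CA3 and 0.32 in CA1; limma, adjusted p = 0.0935), and in the actin nucleator Cobl 0.47 ± 0.10 (0.45 and -0.02; adjusted p = 0.0969). Sec61g, of the protein channel of the reticulum, had -0.37 in CA3 and 0.53 in CA1 (adjusted p of the difference 0.0617). The count was 4 without the pairing by rat, 31 with the run as covariate and 57 in the first run alone, so the count of 0 does not show that CA3 and CA1 age alike. Of the lists above, the median change in CA1 was 0.89 for MHC class II, 0.24 for homeostatic microglia and -0.19 for axon guidance, against 0.45, 0.32 and -0.12 in CA3.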

How the data were processed

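Polyadenylated RNA was sequenced from dissected DG, CA1 and CA3 of 28 male F344 rats, 84 libraries in all, with the Ion Total RNA-seq Kit v2 per the labels' protocols. The deposited signal values are normalized read counts per gene. Per the submitters' processing notes the authors used STAR 2.5.3a, Partek and DESeq2 3.5, and the build was rn6. Annotation, strand setting and filters: not given in the sources used here. Values were whole multiples of 1 size factor per library (tolerance 0.1 read, checked up to 1000 reads), so whole reads and depth were recovered, and edgeR on these reads called 3245 genes.

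CA3 values were tested as log2 of the value plus 1 in limma 3.58.1 (R 4.3.3; trend, Benjamini-Hochberg over all tested genes, threshold 0.05), for genes at 10 or more in at least 12 of 28 libraries. The differences from CA1 and DG used the within-rat difference, since the labels give the subregions of 1 rat the same number. Between the ages the rats differ, so no pairing exists. The alternatives were DESeq2 1.42.0 and edgeR 4.0.16 on the recovered reads, other pseudocounts (0.5 and 5), filters, scalings, covariates, each run alone and each rat left out. Simulated data with the real means recovered 45% of 80 genes changed 1.2-fold, 80% of 80 changed 1.5-fold and 95% of 40 changed 2-fold, with 3 false calls among 14693 unchanged genes (14893 in all). Genes were drawn independently, without runs, shared variation between genes or a library that stands apart. The real data hold these, so the simulated rates do not give the share of false calls among the 3231 genes. The members, the 66 gene lists and the rule for named genes were chosen with earlier results of these data known. The rule takes the smallest p per direction, the largest changes present in both runs, up to 4 called members per list, the markers and the leading differences between subregions and runs. A part of the genes it takes is printed, and some are not reported here. Promoter windows run from 250 bases before to 50 after each RefSeq start and were matched by symbol. Spike-in reads were not used here.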

Additional observations from a re-analysis of the deposited data

Results flagged for a closer look

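The age effect differed between CA3 and the DG, by the within-rat test at an adjusted p under 0.05 in limma, in 18 of the genes described here. The CA3 change minus the DG change was 1.10 for Fut4, 0.51 for Mrpl14, 0.49 for Nudt19, 0.48 for Jund, 0.44 for Oaz1, 0.43 for Cst3, 0.39 for Tmem119, 0.38 for Naglu and 0.37 for Gga2. The difference was negative for AABR07001734.1 (-2.16), AABR07026797.1 (-0.80), Sec61g (-0.74), Fosl2 (-0.53), Bcl7a (-0.49), Hecw1 (-0.46), Gsk3b (-0.45), Magi2 (-0.35) and Celf2 (-0.25). Tmem119, the microglial surface marker, thus rose by 0.37 in CA3 and stood at -0.02 in the DG (limma, adjusted p of the difference 0.0323), and Fosl2 had -0.43 and 0.11.

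The age effect in CA3 differed between the runs of animal numbers in 9 of these genes. The second-run change minus the first-run change was 1.87 for Pdk4, 1.84 for LOC100364457, 1.70 for LOC103692829 and 0.87 for LOC100362149. It was -1.57 for RGD1559821, -0.69 for Tet3, -0.64 for Atxn1, -0.60 for Mt3 and -0.48 for Tbc1d16. RGD1559821 and Tet3 passed the pooled age test in CA3, but depended on single rats. For RGD1559821 the pass was lost without 5-month replicate 7, 9, 10 or 12 or 12-month replicate 14 or 16 (limma, adjusted p from 0.0531 to 0.0729). For Tet3 it was lost without 5-month replicate 8 or 12 (adjusted p = 0.0516 and 0.0596).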

How the results depend on the processing

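The count of 3231 genes lay between 3086 and 3821 under other pseudocounts, filters and scalings, edgeR, DESeq2, the run or marker levels as covariates, and at 2462 in the second run alone. It was 719 in the first run alone, 2048 with the mitochondrial share as covariate (958 higher and 1090 lower) and 1224 with a fold of at least 1.2 (777 higher and 447 lower, 63.5% higher against 50.4%). Leaving out 1 rat gave 2649 (without 5-month replicate 7) to 3417 (without 5-month replicate 6). The difference from the DG was called in 171 genes with no replicate block, that is without the pairing by rat, against 393 with it, in 1 in the first run alone, in 757 in the second run alone, and in 115 (without 5-month replicate 11) to 896 (without 5-month replicate 2) with 1 rat left out. Against CA1 the count of 0 became 4 with no replicate block, 2 with a pseudocount of 5, 31 with the run as covariate and 57 in the first run alone, and 0 to 20 with 1 rat left out, highest without 5-month replicate 9. The 86 genes that differed between runs became 30 (without 5-month replicate 6 or 7) to 166 (without 5-month replicate 11). The mitochondrial difference of 1.45 points was -0.02 in the first run alone, and 1.18 to 1.65 with 1 rat left out. In the first run alone the sign was opposite for Pdk4 (-0.13), RGD1559821 (0.15), Tet3 (0.04) and Gga2 (-0.06). The Gga2 change in CA3 did not pass, was -0.01 with the mitochondrial share as covariate, and ranged from -0.00 to 0.03 with 1 rat left out. Pdk4 did not pass by edgeR (adjusted p = 0.0719) or DESeq2 (adjusted p = 0.0851), and Dkk3 and Gabbr2 did not pass in limma after quantile normalization (adjusted p = 0.102 and 0.0662). Leaving out 1 rat moved the count by over 1.5 times in 20 of 28 cases for the DG, 10 for CA1 and 14 for the runs. Apart from the fits with fewer rats, the causes were not tested. No paired analysis was possible between the ages because the rats are different. At this depth and number of rats 45% of 1.2-fold changes were called in simulated data without runs or shared variation between genes. Of the 3231 genes 150 had a mean under 50 in both ages.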

Other observations

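The rat of 12-month replicate 10 had the highest MHC class II levels in all 3 subregions, and the genes below were chosen after their values were seen. RT1-Da reached 8368.3 in its CA3, 10540.6 in its CA1 and 907.4 in its DG, against highest other values of 727.8, 204.6 and 213.1, each in replicate 8. In CA3 the complement gene C1qa stood at 9309.5 against 2804.4 in the next older library, the phagocyte gene Cd68 at 518.5 against 60.7, the antiviral gene Mx1 at 710.9 against 100.1, the leukocyte integrin Itgal at 795.2 against 184.5 and the class II coactivator Ciita at 196.2 against 18.8. The T cell gene Cd3e was at 21.8 against 3.3 to 95 in the other older libraries, and the border macrophage genes Cd163 and Mrc1 at 12.3 and 41.7 against 54.0 and 129.1. The myeloid gene Lyz2 was at 459.7, below the lowest other older library at 530.8. These 4 were thus not raised in that CA3 library. Ptprc and Cd4, also leukocyte genes, were raised there, at 344.1 and 948.8 against highest other older values of 121.8 and 408.3. In the CA1 of that rat Cd3e was at 250.3 against 119.8 to 250.4 in the other older rats, and Lyz2 at 816.2 against 625.4 to 974.0. The labels give no health record for this rat.

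Genes of the choroid plexus, which lies along the hippocampus, varied between libraries at either age. Their summed level ran from 2365.6 to 8688.8 at 5 months and from 2301.9 to 25883.1 at 12 months, and 1 of 10 tested members rose and 0 fell. Circadian clock genes had 1 of 21 higher and 3 lower (19.0%, median -0.05). Monoamine and acetylcholine receptor genes, muscarinic and nicotinic, had 0 higher and 5 of 29 lower (17.2%, median -0.15). The nicotinic Chrnb2 and Chrna4 were among those lower. For comparison, 21.7% of all genes passed in either direction and 10.8% were lower. The receptor count became 3 without 5-month replicate 7 and 2 with the mitochondrial share as covariate. Of 42 autophagy and mTOR genes 6 rose and 8 fell (33.3%; median -0.02). Of 34 proteasome genes 3 rose and 2 fell (14.7%; median 0.02), and 1 rose and 4 fell with that covariate.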
